A study of Mus musculus with 14 samples.

Results

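Gene expression in the muscle wall of the mouse colon was compared between libraries labelled as Carmn knockout (KO) and wild-type libraries. The comparison holds 6 of the 14 samples of the series, chosen by their labels: 3 bulk RNA sequencing libraries of KO colon, tagged m1, t4 and t6, and 3 of wild-type (WT) colon, tagged t1, t6 and t7. All mice were of the C57BL/6 strain. The KO genotype is given as Carmn iKO and the control genotype as WT mTmG, where mTmG is a fluorescent Cre reporter carried at the Rosa26 locus. The labels name the reporter for the controls alone, and they give no Cre driver, inducing agent, age or sex. Muscularis was dissected by hand, frozen and lysed as whole tissue, so each library mixes smooth muscle with all other cells of the layer, and fewer cells of a type cannot be told apart from less RNA per cell. The rest of the series is 6 bulk libraries of jejunum muscularis from the same genotypes and 2 libraries of single nuclei from colon, 1 per genotype. Nothing in the labels states that libraries of a group came from separate animals, so the p-values measure the spread between these samples.

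Carmn is a long noncoding RNA of smooth muscle, transcribed beside the genes of miR-143 and miR-145, and is known as a cofactor of myocardin, which drives contractile genes. In gut smooth muscle, calcium released from the sarcoplasmic reticulum or entering from outside activates myosin light chain kinase, and myosin phosphatase reverses the step. The same layer holds enteric neurons, glia, interstitial cells of Cajal, fibroblasts, vessels and resident macrophages, and steroid and immediate early transcripts in it respond within hours to stress and handling.

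The KO-labelled libraries held 28698273 to 41913833 counts and the WT libraries 25849027 to 35121152. Of 40481 genes in the table, 20886 had enough counts to be tested. Levels are given as CPM (counts scaled to a common library size) after scaling by the trimmed mean of M values, always in the order m1, t4, t6 for KO and t1, t6, t7 for WT. The targeted gene itself, Carmn, was at 461, 304 and 718 CPM in the KO-labelled libraries and at 252, 171 and 351 CPM in WT. The groups overlapped, and the direction went against the label (log2 fold change 0.94, SE 0.34, edgeR adjusted p = 0.234). An exact two-sided permutation test of the 3 against 3 levels gave p = 0.2, where the smallest possible value is 0.1. By raw counts, the genes beside Carmn were lower in every KO-labelled library than in any WT library. Bvht had 369, 138 and 248 counts in KO and 1483, 1001 and 1728 in WT. Mir143 had 141, 42 and 130 against 311, 270 and 390, and Mir145a 82, 18 and 90 against 234, 206 and 401. In the nuclei the Carmn share was lower in the KO-labelled library, with 1376 unique molecular identifiers (UMIs) against 5542, a ratio of 0.318 after scaling to each library's total (95% exact interval 0.3 to 0.338, counting error only). The labels do not say which exons were removed, so whether the counted reads lie outside them was not tested. Every direction below is therefore that of the libraries labelled KO.

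After edgeR's quasi-likelihood test across the 4 bulk groups, 81 genes passed an adjusted p of 0.05 in colon, which was 0.388% of those tested. Of these, 24 rose in the KO-labelled libraries (0.115%) and 57 fell (0.273%). The median log2 fold change over all genes was 0.004. In all 81 the 3 KO-labelled levels lay apart from the 3 WT levels, as they did for 1835 genes on the higher side (8.79%) and 2166 on the lower (10.4%). An unadjusted p under 0.05 was reached by 3026 genes (14.5%). DESeq2 called 960 (4.6%), all 81 among them, and limma voom called 95 (0.455%). The number of calls depended on single libraries: it was 180 without KO m1, 39 without KO t4, 7 without KO t6, 8 without WT t1, 11 without WT t6 and 102 without WT t7. It was 58 to 179 without 1 jejunum KO library and 25 to 32 without 1 jejunum WT library. With the 6 colon libraries alone 0 genes were called, so each of the 81 calls needed the jejunum libraries in the fit. For 5 genes, Errfi1, Pcp4l1, Gt(ROSA)26Sor, Casq2 and Colec10, the adjusted p stayed under 0.05 whichever of the 12 bulk libraries was left out. For each of the other 76 called genes it passed 0.05 in at least 1 of those fits and reached at most 0.217, with no change of sign without KO t4.

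**Figure D1:**
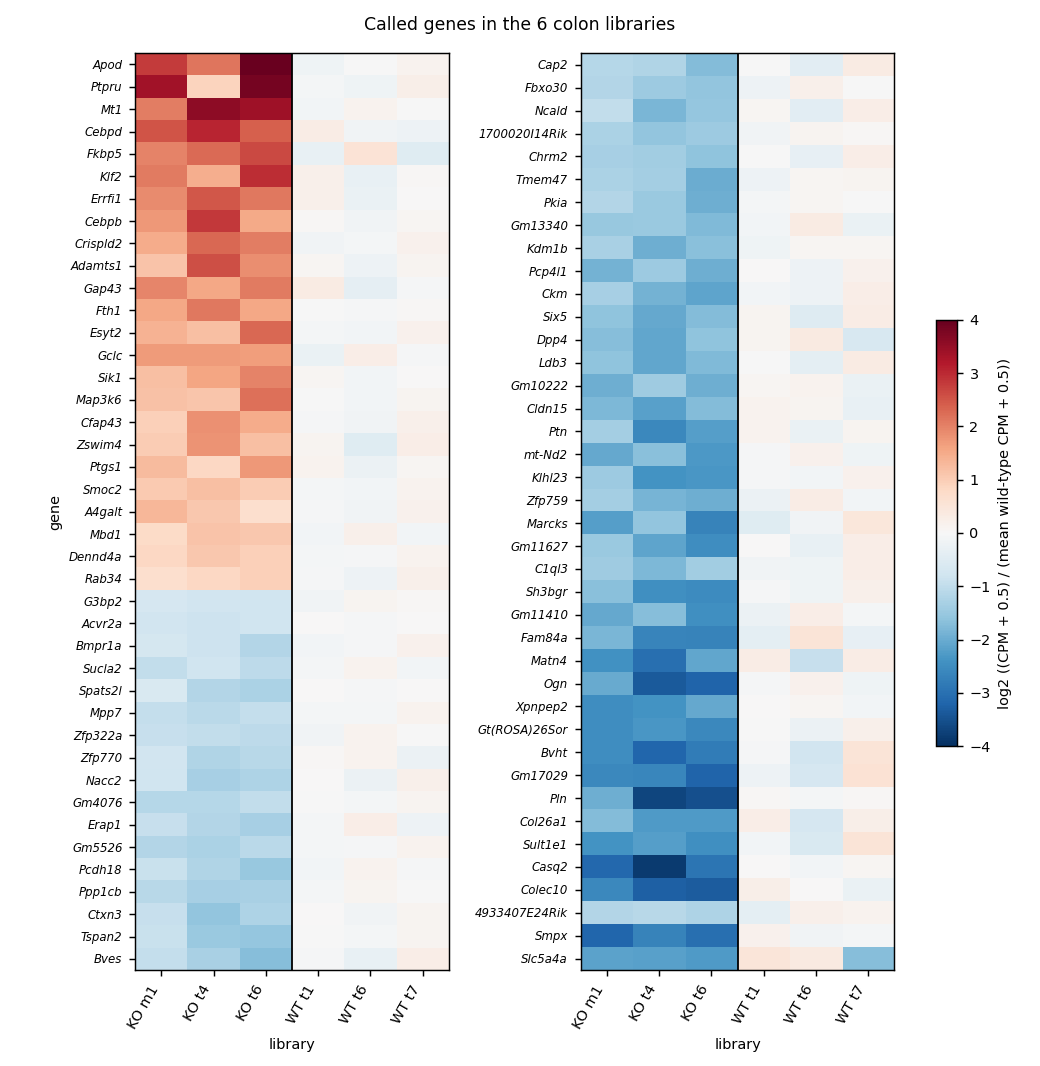
Level of each of the 81 called genes (rows, ordered by fold change, continuing in the right panel) in the 6 colon libraries (columns), as log2 of CPM + 0.5 over the wild-type mean + 0.5. The 24 genes called higher are red in all 3 KO-labelled columns, the 57 called lower are blue in all 3, and Slc5a4a also differs within wild type, where WT t7 is low.

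KO t4 stood apart from the other colon libraries. On the scale of log2(CPM + 1), 568 genes in it were more than 2-fold above all 5 other libraries and 181 more than 2-fold below. The same counts were 24 and 2 for KO m1 and 107 and 91 for KO t6. Among wild type they were 58 and 1 for WT t1, 210 and 11 for WT t6, and 10 and 359 for WT t7. Neutrophil markers, S100a8, S100a9, Csf3r, Retnlg and Mmp8, summed to 655 CPM in KO t4 and to 3.8 to 6.64 CPM in the other 5 libraries. Macrophage markers summed to 1713 CPM in KO t4 against 467 to 801 elsewhere. Lyz2 gave the most counts of that list in KO t4, 24330, followed by Csf1r with 6099. What part of the macrophage sum came from neutrophils was not tested. The mast cell list reached 129 CPM in KO t4 against 1.11 to 2.94, nearly all of it Hdc, the enzyme that makes histamine, at 129 CPM, while the mast cell protease Cpa3 was at 0.139 CPM.

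Among the other cell types, summed markers of enteric neurons were 1381 to 1786 CPM in KO and 1038 to 1660 CPM in WT. Enteric glia gave 238 to 327 and 220 to 292 CPM, and interstitial cells of Cajal 506 to 587 and 552 to 677 CPM. Markers of epithelium, which belongs to the mucosa beside the muscle wall, spread over 1291, 1400 and 2883 CPM in KO and 1987, 4225 and 96.1 CPM in WT, lowest in WT t7. With the epithelial level as a covariate, 63 of the 81 calls stayed under 0.05 and the largest adjusted p was 0.0685. Skeletal muscle markers summed to 34.6, 23 and 21.7 CPM in KO and 72.5, 67.1 and 88.7 CPM in WT, of which Ckm made up the larger share. Adipocyte markers summed to 73.3, 11.2 and 15.9 CPM against 101, 89.8 and 51.8 CPM, with all 6 log2 values below 0 and 3 genes lower without overlap (median -1.34, and -0.97 without KO t4). The sums of erythrocyte markers overlapped, at 48.7, 35.5 and 71.6 CPM against 33.8, 114 and 33.4 CPM. Of those 5 genes, 4 had log2 values below 0 and 3 were lower without overlap (median -1.70). The other gene, Hbb-bs, had a log2 of 0.88, with 1750, 751 and 2150 counts in KO against 348, 1557 and 271 in WT. It was the most counted of the 5 in each KO library. The sums of mesothelium markers overlapped too, at 128, 254 and 131 CPM against 159, 288 and 424 CPM (median -0.71), with 1 of 5 genes lower without overlap. Fibroblast markers summed to 1656 to 2725 CPM in KO and 2065 to 2592 CPM in WT, with a median of -0.62 over 8 genes, 4 of them lower without overlap. The part of these cell types in other results was not tested. Among all 17 cell type lists, Ckm was the single marker that passed the test. Over all genes tested, 10.4% were lower without overlap.

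**Figure D2:**
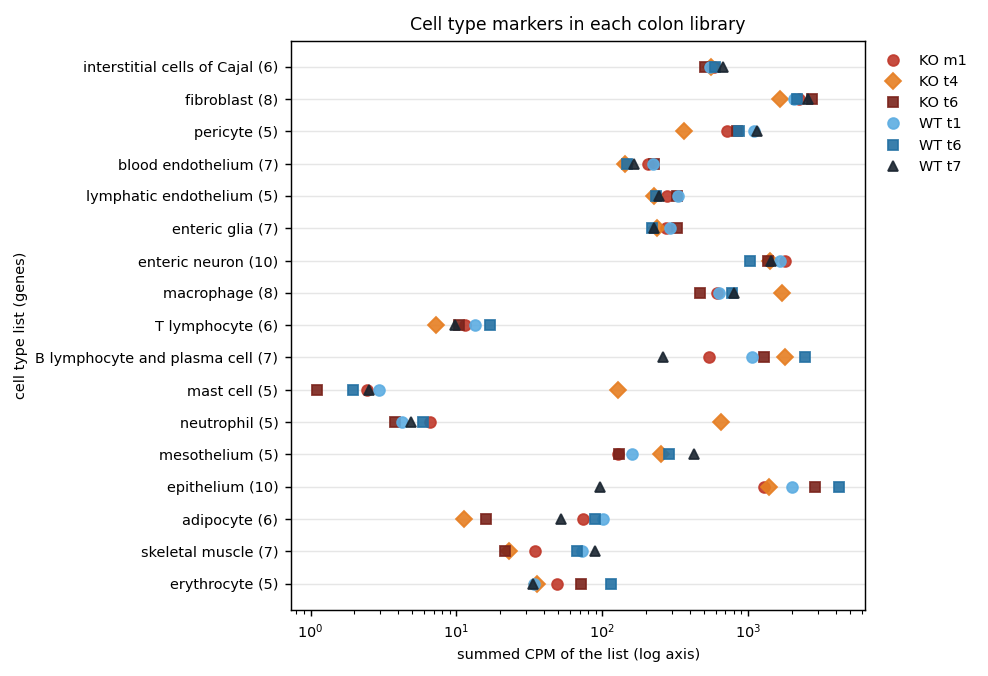
Summed CPM of the marker genes of 17 cell types (rows, log axis, number of genes in brackets) in each colon library (symbols). KO t4 stands far to the right for neutrophil (655) and mast cell (129) markers, and WT t7 far to the left for epithelium (96.1).

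Leaving out KO t4 separated the pattern into what it carried alone and what it shared with KO m1 and KO t6. In that fit 39 of 21616 genes were called (0.18%), of which 28 were among the 81: 12 of the 24 that rose and 16 of the 57 that fell. The fold changes of the 81 moved by a median of 0.13 on the log2 scale. Of the 379 genes with a log2 fold change above 2 in all libraries, called or not, 115 came below 1 without KO t4. Of the 411 genes below -2, none came above -1, as the arithmetic of a mean nearly requires. Levels cannot lie below 0, so leaving out 1 of 3 libraries cannot raise a low mean that far. That count therefore cannot show whether falls rested on KO t4. The inflammation list (20 genes) had a median of 1.78 with KO t4 and 0.16 without, the chemokine list (16 tested) 0.34 and -0.38, and the cell cycle list (18) 0.01 and -1.24. Matrix proteases (17) went from 0.87 to 0.32, antioxidant genes (17) from 0.67 to -0.03, and collagens and laminins (21) from 0.24 to -0.19. By contrast the glucocorticoid response list (20) had a median of 1.64 with KO t4 and 1.69 without, the 13 mitochondrially encoded genes -1.63 and -1.67, and the contractile list (20) -0.80 in both. Over all genes the median without KO t4 was -0.023.

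**Figure D3:**
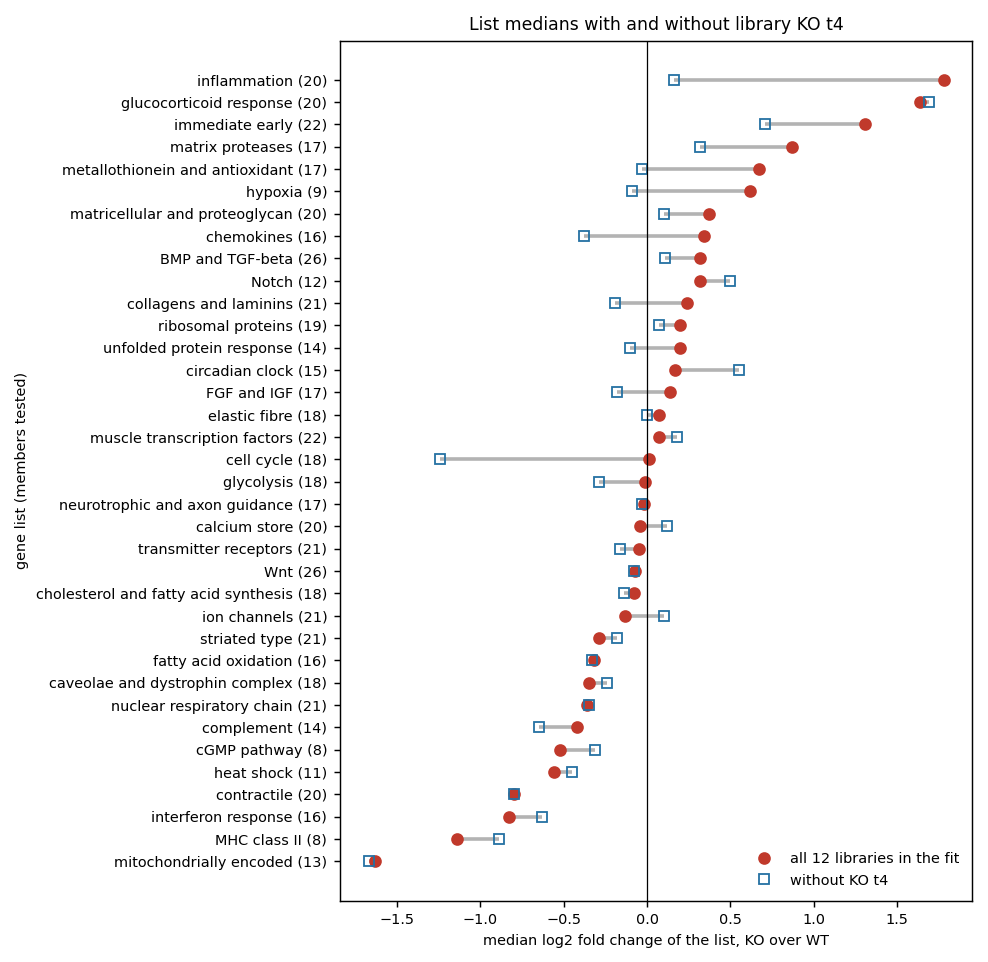
Median log2 fold change, KO over WT, of 36 gene lists (rows, members tested in brackets) in the fit with all libraries (filled circles) and in the fit without KO t4 (open squares). The grey line is long for inflammation (1.78 to 0.16) and cell cycle (0.01 to -1.24) and short for the glucocorticoid response (1.64 to 1.69) and mitochondrially encoded genes (-1.63 to -1.67).

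Glucocorticoid-responsive genes formed the list with the most called members. Of its 20 genes, 5 rose (Errfi1, Fkbp5, Map3k6, Cebpd and Cebpb), none fell, 13 lay higher without overlap and 17 were higher at an unadjusted p under 0.05. DESeq2 called 14 of them higher and limma voom 6. Over all genes tested, edgeR called 0.115% higher and 8.79% lay higher without overlap. The lists were written with earlier results of these data known, so the rank of this list is a description only. Errfi1, a feedback inhibitor of the EGF receptor (chr4:150853919-150868892, GRCm38), was at 160, 240 and 186 CPM in KO and 49.3, 35.8 and 43.5 CPM in WT. The lowest KO level was more than 3 times the highest WT level (log2 2.19, SE 0.21, edgeR adjusted p = 0.00306, and 0.00444 without KO t4). Map3k6, a stress-activated kinase, was at 47.6, 45.4 and 98.1 CPM against 20.5, 19 and 22.4 CPM, with KO t6 highest (log2 1.63, SE 0.27, edgeR adjusted p = 0.0326, and 0.0285 without KO t4). Cebpb, a transcription factor induced by steroids and by inflammation, was at 126, 270 and 109 CPM against 38.8, 34.6 and 40.3 CPM. Here KO t4 was highest, and the edgeR adjusted p went from 0.0433 to 0.0768 without it.

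The remaining members of that list showed which library carried them. Tsc22d3, the glucocorticoid-induced leucine zipper, was at 141, 76 and 234 CPM against 58.1, 69.5 and 46.2 CPM, lowest of the KO libraries in t4, and passed the threshold in the fit that left KO t4 out (edgeR adjusted p = 0.123 with it and 0.0388 without). Zbtb16 behaved alike in the numbers, at 227, 81.8 and 375 CPM against 96.3, 79.9 and 74.6 CPM, overlapping in KO t4 alone (edgeR adjusted p = 0.176 and 0.0388). Lcn2, an acute phase protein that neutrophils also store, went the other way, at 28.3, 548 and 41.2 CPM against 12.6, 11.8 and 7.8 CPM. Its log2 value was 4.26 with KO t4 and 1.69 without, and it passed in neither fit (edgeR adjusted p = 0.175 and 0.426). Nr3c1, the receptor itself, was at 87, 68.8 and 80.6 CPM in KO and 114, 149 and 106 CPM in WT, without overlap but short of the threshold (log2 -0.64, edgeR adjusted p = 0.185).

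Immediate early genes, which are transcribed within minutes of a stimulus, had 22 members tested, of which 2 rose (Sik1 and Klf2), none fell and 14 lay higher without overlap. Over all genes tested, edgeR called 0.115% higher and 8.79% lay higher without overlap. The list median of 1.31 came to 0.71 without KO t4. Sik1, a kinase that restrains CREB coactivators, was at 88.8, 117 and 155 CPM against 40.8, 36 and 38.9 CPM (log2 1.64, SE 0.22, edgeR adjusted p = 0.0176, and 0.0295 without KO t4). Klf2, a transcription factor best known from endothelium, was at 239, 153 and 437 CPM against 65.1, 45.3 and 58 CPM. KO t4 was the lowest of its 3 KO levels, and the log2 value was 2.30 with it (SE 0.40, edgeR adjusted p = 0.0404) and 2.59 without it. Summed markers of blood endothelium were 207, 143 and 228 CPM in KO and 224, 147 and 165 CPM in WT, and none of those 7 genes reached an unadjusted p under 0.05. Ier3 and Junb were highest in KO t4, at 185 and 545 CPM, followed by KO t6 at 37.3 and 228 CPM. For both genes KO m1 and KO t6 also lay above every WT library, and neither gene passed (edgeR adjusted p = 0.141 and 0.115).

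Metal-binding and antioxidant genes had 17 members tested, of which 2 rose, Mt1 and Gclc. Gclc, the catalytic subunit of the first enzyme of glutathione synthesis, had the smallest spread between KO libraries relative to its mean among the genes that rose, at 108, 108 and 105 CPM in KO and 27, 39.2 and 31.8 CPM in WT (log2 1.71, SE 0.24, edgeR adjusted p = 0.0192, and 0.0388 without KO t4). Fth1, the ferritin heavy chain that stores iron, was outside the list and the most abundant gene that rose, at 3468, 5116 and 3467 CPM against 1192, 1163 and 1232 CPM. The KO levels were all more than 2 times the WT levels (log2 1.75, SE 0.27, edgeR adjusted p = 0.0301, and 1.54 with 0.0624 without KO t4). In KO t4 alone, 2 stress genes of the list were high: Hmox1, which degrades haem, was at 9.14, 91 and 15.3 CPM against 8.16, 11.8 and 9.17 CPM, and Slc7a11, a cystine importer, at 1.5, 59.6 and 0.734 CPM against 2.01, 2.47 and 1.91 CPM. Neither passed the test (edgeR adjusted p = 0.286 for both).

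The 250 bases upstream of the RefSeq start (GRCm38.p6) were searched on both strands for the glucocorticoid response element (GNACA and TGTNC, 3 bases apart), the metal response element cores TGCACNC and TGCGCNC, the antioxidant response element core TGACNNNGC, the MEF2 site and the CArG box bound by serum response factor. Of the 81 called genes 56 had such a window, and a gene with several starts counted if any window held the motif. The glucocorticoid response element stood in 2 of 18 windows of genes that rose (11.1%), Mt1 and Map3k6, in 0 of 38 of genes that fell, and in 49 of 13515 tested genes (0.363%). The metal response core was in 16.7% of genes that rose, 47.4% of those that fell and 32% of all, and the antioxidant core in 5.56%, 7.89% and 13.6%. A MEF2 site was in 1 gene that rose (Klf2) and 1 that fell (Casq2), against 2.2% of all genes, and a CArG box in 1 that fell (Ldb3), against 1.4%. A match is a description of letters and was not tested as a bound site. The windows of the 2 genes with the glucocorticoid element (chr8:94178839-94179088 and chr4:133240568-133240817, plus strand) and of Casq2 (chr3:102086165-102086414, plus strand) and Ldb3 (chr14:34588682-34588931, minus strand) are printed 5′ to 3′ to show where the motif, in capitals, lies.
Mt1: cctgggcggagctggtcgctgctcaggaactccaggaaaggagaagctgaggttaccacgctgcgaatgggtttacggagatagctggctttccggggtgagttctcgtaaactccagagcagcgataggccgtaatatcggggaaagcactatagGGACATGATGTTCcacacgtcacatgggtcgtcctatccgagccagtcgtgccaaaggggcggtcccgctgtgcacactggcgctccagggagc
Map3k6: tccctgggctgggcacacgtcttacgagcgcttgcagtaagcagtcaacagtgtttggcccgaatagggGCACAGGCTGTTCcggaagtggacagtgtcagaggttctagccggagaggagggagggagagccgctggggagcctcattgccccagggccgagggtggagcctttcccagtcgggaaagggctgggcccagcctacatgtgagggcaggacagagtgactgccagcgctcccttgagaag
Casq2: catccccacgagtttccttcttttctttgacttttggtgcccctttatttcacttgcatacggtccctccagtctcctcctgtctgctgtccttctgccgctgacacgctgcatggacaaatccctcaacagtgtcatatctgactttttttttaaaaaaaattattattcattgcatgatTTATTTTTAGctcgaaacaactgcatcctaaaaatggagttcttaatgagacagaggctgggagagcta
Ldb3: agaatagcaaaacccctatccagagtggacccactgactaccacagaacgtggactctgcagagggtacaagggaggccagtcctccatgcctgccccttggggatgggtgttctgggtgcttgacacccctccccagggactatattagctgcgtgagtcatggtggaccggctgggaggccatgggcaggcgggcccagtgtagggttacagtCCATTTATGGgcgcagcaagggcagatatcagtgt

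Among genes that fell, several encode proteins of the sarcomere type or of the calcium store. Casq2, the calcium-binding protein of the sarcoplasmic reticulum (chr3:102086415-102146514), was at 2.93, 1.63 and 3.47 CPM in KO and 29.6, 27.6 and 31.6 CPM in WT. That was the smallest adjusted p of the comparison (log2 -3.46, SE 0.28, edgeR adjusted p = 0.00113). In the calcium store list of 20 genes, Casq2 and the calcium pump inhibitor Pln fell, none rose, and the median was -0.04. Atp2a2, the pump itself, was at 918, 543 and 1283 CPM against 631, 523 and 692 CPM and did not pass (edgeR adjusted p = 0.486). Ldb3, a Z-disc protein of striated muscle (chr14:34526603-34588682), was at 27.1, 19.4 and 24 CPM against 81.5, 64 and 104 CPM (log2 -1.82, SE 0.21, edgeR adjusted p = 0.00738, and 0.0285 without KO t4). Of 21 striated-type genes tested, Ldb3 and Smpx fell and none rose. Tnnt2, cardiac troponin T, was at 9.66, 5.17 and 18.5 CPM against 59.3, 48.9 and 72.4 CPM and stayed short of the threshold (log2 -2.43, SE 0.52, edgeR adjusted p = 0.0839), while Ttn, the giant sarcomere spring, lay on the other side at 10.1, 13.8 and 8.46 CPM against 6.67, 5.33 and 5.74 CPM (edgeR adjusted p = 0.22).

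Further muscle genes fell outside those lists or in others. Ckm, the creatine kinase that buffers ATP in muscle, was at 23.2, 15.5 and 13.2 CPM against 54.9, 50.5 and 70.9 CPM (log2 -1.76, SE 0.29, edgeR adjusted p = 0.032, and 0.079 without KO t4). Of the skeletal muscle markers beside it, Acta1 was at 1.61, 2.5 and 2.13 CPM against 5.93, 6.46 and 6.59 CPM and did not pass (edgeR adjusted p = 0.339). Six5, a homeobox transcription factor and the single called member of 22 muscle transcription factors, was at 28.4, 20.7 and 25.9 CPM against 94.1, 60.7 and 106 CPM (log2 -1.80, SE 0.24, edgeR adjusted p = 0.0176). Srf, whose protein binds CArG boxes, was at 201, 172 and 228 CPM against 314, 235 and 374 CPM, and Myocd at 157, 179 and 99.2 CPM against 141, 119 and 200 CPM, and neither passed (edgeR adjusted p = 0.219 and 0.926). Sh3bgr, a small protein abundant in heart and skeletal muscle, was at 27.2, 15.8 and 15.2 CPM against 85.8, 79.1 and 101 CPM (log2 -2.19, SE 0.37, edgeR adjusted p = 0.0341, and 0.0934 without KO t4).

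The contractile list of 20 genes had no call by edgeR, 11 at an unadjusted p under 0.05, 7 by DESeq2 and 1 by limma voom, all lower in KO. Its median was -0.80, all 20 values were below 0 and 14 of the 20 groups did not overlap, all on the lower side. Over all genes tested, 10.4% were lower without overlap, 14.5% reached an unadjusted p under 0.05 in either direction and DESeq2 called 4.6%. Synm, an intermediate filament protein, was at 1968, 1282 and 2021 CPM against 3635, 2964 and 4607 CPM (log2 -1.09, edgeR adjusted p = 0.102). Ppp1r12a, the targeting subunit of myosin phosphatase, was at 447, 240 and 347 CPM against 664, 600 and 865 CPM (log2 -1.04, edgeR adjusted p = 0.123). Ppp1cb, a catalytic subunit that pairs with it, was outside the lists and fell, at 217, 185 and 188 CPM against 441, 496 and 456 CPM (log2 -1.24, SE 0.18, edgeR adjusted p = 0.0239, and 0.0586 without KO t4). It is one of the called genes named here after their values were seen, as are Ptn, Marcks, Pcp4l1, Tspan2, Bves, Cap2, Bmpr1a, Acvr2a, Smoc2, Ptgs1, Dpp4, Cldn15, Col26a1 and Sucla2. Bves, Cap2 and Tspan2, which encode a muscle membrane protein, an actin-binding protein and a tetraspanin, fell by 1.32, 1.34 and 1.28 on the log2 scale (edgeR adjusted p = 0.032, 0.0349 and 0.024). Without KO t4 these were -1.31, -1.41 and -1.18 and the calls ended, at adjusted p-values of 0.0768, 0.0744 and 0.0628.

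Chrm2, the muscarinic acetylcholine receptor M2 of gut muscle, was the single call among 21 transmitter receptors. It was at 90.5, 87.1 and 75.3 CPM in KO and 229, 185 and 277 CPM in WT, with every KO level under the lowest WT level (log2 -1.45, SE 0.26, edgeR adjusted p = 0.0433). Its call ended when any 1 of the 6 colon libraries was left out, up to an adjusted p of 0.19. Chrm3, which couples acetylcholine to contraction, was at 24.6, 15.8 and 16.3 CPM against 34.1, 23.9 and 46.2 CPM and overlapped (edgeR adjusted p = 0.188). In the pathway from nitric oxide through cGMP to relaxation, 4 of 8 genes were lower without overlap and none passed by edgeR, with 4 at an unadjusted p under 0.05, 2 called by DESeq2 and 0 by limma voom. Pde5a, which degrades cGMP, was at 375, 164 and 243 CPM against 513, 535 and 629 CPM (log2 -1.10, edgeR adjusted p = 0.131). None of 21 ion channel genes passed by edgeR either, with 5 at an unadjusted p under 0.05, 2 called by DESeq2 and 0 by limma voom. The shares over all genes were 10.4% lower without overlap, 14.5% at an unadjusted p under 0.05 and 4.6% by DESeq2.

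**Figure D4:**
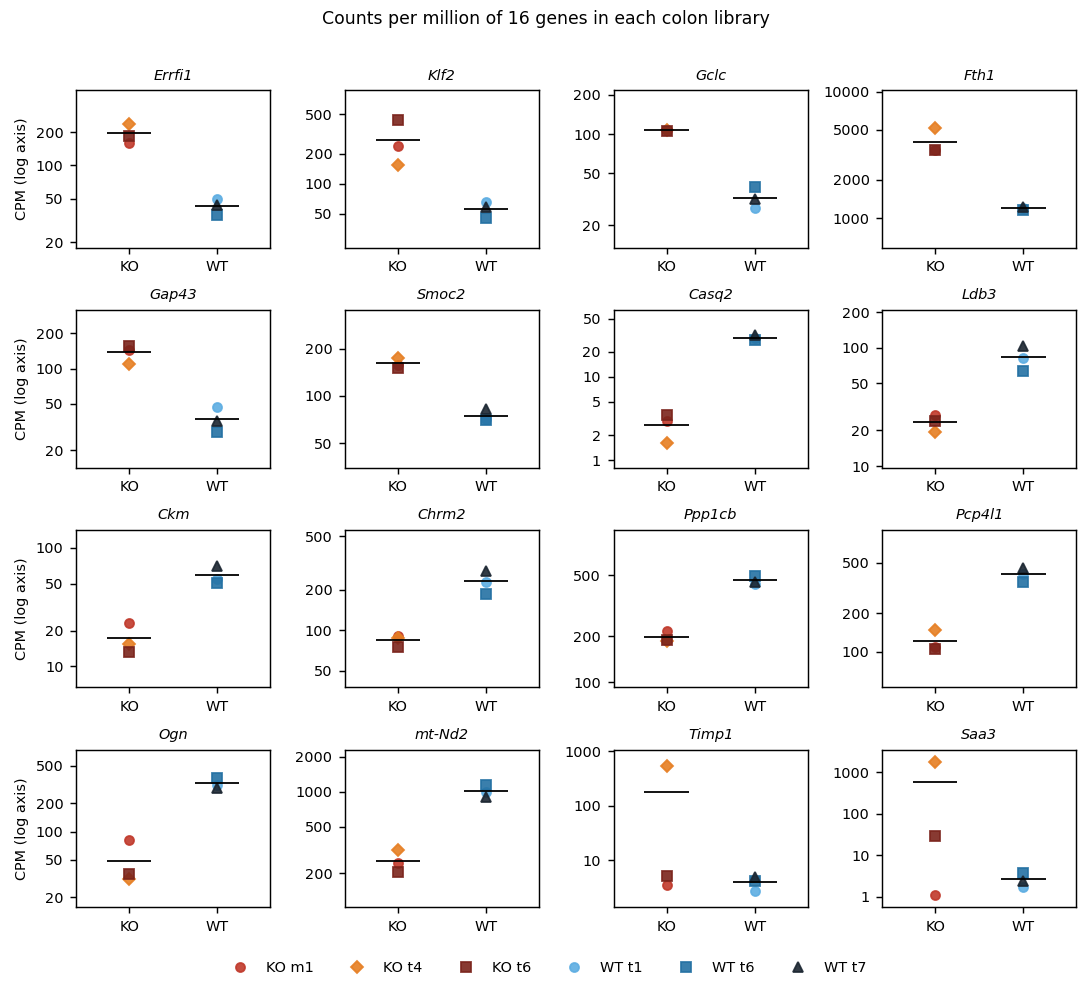
CPM of 16 genes (panels, log axes that differ between panels) in each KO-labelled and wild-type colon library (symbols), with the mean of each group as a line. In the first 14 panels the groups do not overlap, while Timp1 and Saa3 are high in KO t4 and near wild type in KO m1.

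All 13 protein-coding genes of the mitochondrial genome were lower in KO without overlap. edgeR called 1 of them, DESeq2 all 13 and limma voom 4. mt-Nd2, a subunit of complex I, was at 243, 317 and 204 CPM in KO and 990, 1144 and 904 CPM in WT (log2 -1.99, SE 0.30, edgeR adjusted p = 0.025, and 0.0388 without KO t4). mt-Co1, a subunit of complex IV, was at 2697, 2794 and 2536 CPM against 6803, 8648 and 5575 CPM and missed the threshold (log2 -1.39, SE 0.31, edgeR adjusted p = 0.0984). Summed over the 13 genes, mitochondrial CPM were 6790, 7411 and 6159 in KO and 18138, 21852 and 15584 in WT. Nuclear-encoded subunits of the respiratory chain were lower by less, with a median of -0.36 over 21 genes, 11 without overlap, none called by edgeR, 7 at an unadjusted p under 0.05, 2 called by DESeq2 and 0 by limma voom. Of all genes, 10.4% were lower without overlap, 14.5% had an unadjusted p under 0.05 and DESeq2 called 4.6%. Ndufs1, of complex I, was at 39.6, 41.9 and 39.4 CPM against 58.4, 64.7 and 53.3 CPM (log2 -0.55, SE 0.13, edgeR adjusted p = 0.108). Sucla2, a subunit of the mitochondrial succinate ligase, fell by 0.95 on the log2 scale (edgeR adjusted p = 0.0389).

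Of the other called genes, 4 are near copies of mitochondrial genes in the nuclear genome. Their counts may hold reads of the originals, which was not tested. Gm10222 matched mt-Nd4l at 100% over 294 bases, Gm13340 matched mt-Co1 at 97.6% over 1545 bases, Gm4076 matched mt-Nd5 at 95.2% over 954 bases and Gm11410 matched mt-Cytb at 92.9% over 1142 bases. In the nuclei the mitochondrial genes went the opposite way. Each of the 13 had a larger share of UMIs in the KO-labelled library, with ratios of 3.43 (mt-Nd3) to 5.71 (mt-Atp6), and mt-Nd2 was at 3.88 (95% exact interval 3.66 to 4.11, counting error only). Mitochondrial RNA is not made in the nucleus, and what sets its share in nuclei was not tested.

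Among matrix genes, calls fell on both sides. Ogn, the small proteoglycan osteoglycin, was at 81, 31.4 and 35 CPM in KO and 317, 370 and 290 CPM in WT (log2 -2.73, SE 0.49, edgeR adjusted p = 0.0458, and 0.11 without KO t4). It was the single call among 20 matricellular and proteoglycan genes. Matn4, a matrilin, was at 5.23, 3.33 and 6.84 CPM against 37.4, 16 and 37.9 CPM (log2 -2.57, SE 0.36, edgeR adjusted p = 0.0192), and Col26a1 fell by 3.17 on the log2 scale (edgeR adjusted p = 0.0433). Smoc2, a secreted calcium-binding matrix protein, rose instead, at 157, 175 and 151 CPM against 71.7, 70.2 and 83.1 CPM (log2 1.10, SE 0.18, edgeR adjusted p = 0.032, and 0.0744 without KO t4). Adamts1, a protease that cleaves proteoglycans, was the single call among 17 matrix proteases, at 126, 346 and 211 CPM against 60.7, 49.6 and 62 CPM (log2 1.99, SE 0.36, edgeR adjusted p = 0.0458). Its call was lost without KO t4, the highest library, at an adjusted p of 0.0842. Crispld2, a secreted protein induced by glucocorticoids in other cells, was at 320, 553 and 471 CPM against 102, 108 and 128 CPM (log2 1.99, SE 0.37, edgeR adjusted p = 0.0462, and 0.0934 without KO t4).

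KO t4 was the highest library for several further matrix genes, none called. Col1a1, the main chain of type I collagen, was at 733, 4757 and 646 CPM in KO and 1308, 629 and 1490 CPM in WT, so that KO m1 and KO t6 lay within the WT range. Its log2 value was 0.84 with KO t4 and -0.73 without, and it passed in neither fit (edgeR adjusted p = 0.679 and 0.607). Fn1, fibronectin, was at 6011, 18442 and 7701 CPM against 3784, 2790 and 4835 CPM, without overlap and without a call (log2 1.49, edgeR adjusted p = 0.216, and 0.85 with 0.417 without KO t4). Timp1, an inhibitor of matrix proteases, was at 3.6, 533 and 5.22 CPM against 2.78, 4.23 and 5.07 CPM, and its log2 value was 5.49 with KO t4 and 0.13 without. None of the 21 collagen and laminin genes passed by edgeR, DESeq2 or limma voom. Of them 4 were at an unadjusted p under 0.05, against 14.5% of all genes.

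Of secreted signals and their receptors, Ptn, a heparin-binding growth factor, fell from 208, 155 and 202 CPM in WT to 73.2, 30.9 and 40.4 CPM in KO (log2 -1.97, SE 0.34, edgeR adjusted p = 0.0404, and 0.0852 without KO t4). Bmpr1a and Acvr2a, receptors for bone morphogenetic proteins and activins, fell by 0.89 and 0.81 on the log2 scale (edgeR adjusted p = 0.0499 and 0.0349), and both adjusted p-values were over 0.05 without KO t4 (0.0868 and 0.079). Of the 26 genes of the BMP and TGF-beta list, none passed by edgeR, with 7 at an unadjusted p under 0.05, 3 called by DESeq2 and 0 by limma voom. Within it Id3, a target of BMP signals, was at 128, 52.3 and 208 CPM against 29.5, 38.7 and 24.1 CPM (log2 2.07, edgeR adjusted p = 0.118), and Bmp4 was at 16, 7.98 and 23.2 CPM against 27.9, 26.9 and 30.1 CPM (log2 -0.85, edgeR adjusted p = 0.232). The Wnt list of 26 genes had no call by edgeR, with 2 higher and 2 lower at an unadjusted p under 0.05, 2 called by DESeq2 and 1 by limma voom. That 1 was lower in KO, and the member with the smallest p was Sfrp2, a secreted Wnt modulator, at 21, 14.6 and 8.94 CPM against 36.8, 38.4 and 49.7 CPM (log2 -1.49, edgeR adjusted p = 0.063). For both lists, the shares over all genes were 14.5% at an unadjusted p under 0.05, 4.6% by DESeq2 and 0.455% by limma voom.

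The neurotrophic and axon guidance list had 1 call among 17 genes, Gap43, with 7 log2 values above 0 and 10 below (median -0.02). Gap43, a growth cone protein, rose and was at 144, 110 and 157 CPM in KO against 46.7, 28.6 and 35.6 CPM in WT (log2 1.89, SE 0.25, edgeR adjusted p = 0.0187, and 0.0176 without KO t4). Marcks, a related actin-regulating protein kinase C substrate, fell and was at 107, 163 and 77.4 CPM against 352, 442 and 679 CPM (log2 -2.09, SE 0.34, edgeR adjusted p = 0.032, and 0.0329 without KO t4). Pcp4l1, a calmodulin-binding peptide first described in brain, fell and was at 110, 148 and 105 CPM against 410, 352 and 452 CPM (log2 -1.74, SE 0.19, edgeR adjusted p = 0.00449, and 0.00444 without KO t4). Of the 10 enteric neuron and 7 glia markers none passed by edgeR, DESeq2 or limma voom and none reached an unadjusted p under 0.05.

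A pair of further calls touches the genotype labels or lipid signals. Gt(ROSA)26Sor, the noncoding gene of the Rosa26 locus, fell and was at 1.24, 1.42 and 1.14 CPM in KO against 9.05, 7.8 and 10.7 CPM in WT (log2 -2.86, SE 0.30, edgeR adjusted p = 0.00449, and 0.0142 without KO t4). The mTmG reporter named for the controls sits at that locus, it is not named for the KO group, and its part in this difference was not tested. Ptgs1, the constitutive cyclooxygenase, was at 362, 268 and 509 CPM against 165, 128 and 161 CPM (log2 1.33, SE 0.24, edgeR adjusted p = 0.0433, and 0.0285 without KO t4), whereas Ptgs2, the inducible one, was at 13.7, 315 and 18.1 CPM against 12.1, 13 and 13.4 CPM (edgeR adjusted p = 0.21, and 0.807 without KO t4).

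Among the 36 pathway lists, the inflammation median moved most in size without KO t4. None of 20 inflammation genes was called by edgeR, 13 were higher at an unadjusted p under 0.05, 4 were called by DESeq2 and 0 by limma voom. Of all genes, 14.5% had an unadjusted p under 0.05 in either direction and DESeq2 called 4.6%. Saa3, an acute phase protein, was at 1.13, 1746 and 28.9 CPM in KO and 1.76, 3.82 and 2.38 CPM in WT. Il1b was at 3.69, 273 and 0.152 CPM against 0.618, 1.79 and 0.273 CPM, and the neutrophil attractant Cxcl2 at 0.521, 276 and 0.405 CPM against 0.0618, 0.22 and 0.078 CPM. In both, the other 5 libraries lay at or under 3.69 CPM. Without KO t4, 2 of the 20 inflammation genes reached an unadjusted p under 0.05 and none was called. Neutrophil markers rose with these genes in KO t4, as given above, and their part in the inflammation values was not tested.

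No interferon response or MHC class II gene was called. All 16 interferon response genes had log2 values below 0 (median -0.83, and -0.63 without KO t4). Of them 3 were lower without overlap, none was called by edgeR, 6 had an unadjusted p under 0.05, 2 were called by DESeq2 and 0 by limma voom. Over all genes 10.4% were lower without overlap. In either direction 14.5% had an unadjusted p under 0.05 and DESeq2 called 4.6%. Gbp2, a GTPase induced by interferon gamma, was at 65, 43.1 and 54.5 CPM against 93.6, 231 and 133 CPM, with WT t6 highest (log2 -1.49, edgeR adjusted p = 0.143). MHC class II genes had a median of -1.14 over 8 genes, with H2-Aa at 184, 32.9 and 82.1 CPM against 181, 453 and 208 CPM, so that KO m1 lay within the WT range. Of the 8, 2 were lower without overlap, none passed by edgeR, DESeq2 or limma voom, and none reached an unadjusted p under 0.05. Without KO t4 that median was -0.89. Leaving out WT t6, which also held the most epithelial RNA (4225 CPM of summed markers), brought the interferon median to -0.41 and the MHC class II median to -0.76. With the epithelial level as a covariate the medians were -0.85 and -1.20.

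Cell cycle genes had a median of 0.01 with all libraries and -1.24 without KO t4, without a call in either fit. The median also moved with wild-type libraries, to 0.51 without WT t6 and -0.41 without WT t7. Mki67, the proliferation marker, was at 8.66, 73.6 and 6.05 CPM in KO and 37.3, 74.5 and 6.95 CPM in WT, so that KO t4 and WT t6 were high and the low libraries of both groups were alike. Ccnd1, cyclin D1, was the one member without overlap, at 32.3, 64.8 and 22.2 CPM against 93.9, 119 and 105 CPM (log2 -1.41, edgeR adjusted p = 0.27). By edgeR none of the 18 was called, 1 reached an unadjusted p under 0.05, and DESeq2 and limma voom called 0. The circadian clock list (15 genes, median 0.17) and the lists of cholesterol and fatty acid synthesis (18, median -0.08) and ribosomal proteins (19, median 0.20) had no called gene by edgeR, DESeq2 or limma voom, with 1, 1 and 0 genes at an unadjusted p under 0.05. The circadian median changed sign with single libraries and was -0.25 without KO t6 and 0.94 without WT t6.

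The nuclei gave a second readout of the called genes, from 3476 WT and 2164 KO-labelled barcodes with 8548929 and 6664997 UMIs. With 1 library per genotype there is no test. Of the 81 genes, 69 had at least 50 UMIs over both libraries, and 61 of these went in the direction seen in whole tissue: 24 of 24 that rose and 37 of 45 that fell. Over 12809 genes with that many UMIs, 54.5% were higher and 45.5% lower in the KO-labelled nuclei, with a median log2 ratio of 0.04. The median log2 ratio was 0.82 for genes that rose and -0.50 for genes that fell. Fth1 and Smoc2 had ratios of 5.05 and 4.69 (95% exact intervals 4.62 to 5.54 and 4.13 to 5.34, counting error only), more than in whole tissue. Errfi1 and Gap43 were at 1.31 and 1.02, less than in whole tissue, and the interval of Gap43, 0.854 to 1.21, held 1. Ptn was at 0.371, Pcp4l1 at 0.471, Chrm2 at 0.613 and Ldb3 at 0.71. On the other side of 1 from whole tissue lay Marcks at 1.52, Cldn15 (a tight junction claudin) at 1.86, Dpp4 (a membrane peptidase) at 1.70, Fam84a at 2.15 and Ogn at 1.25.

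**Figure D5:**
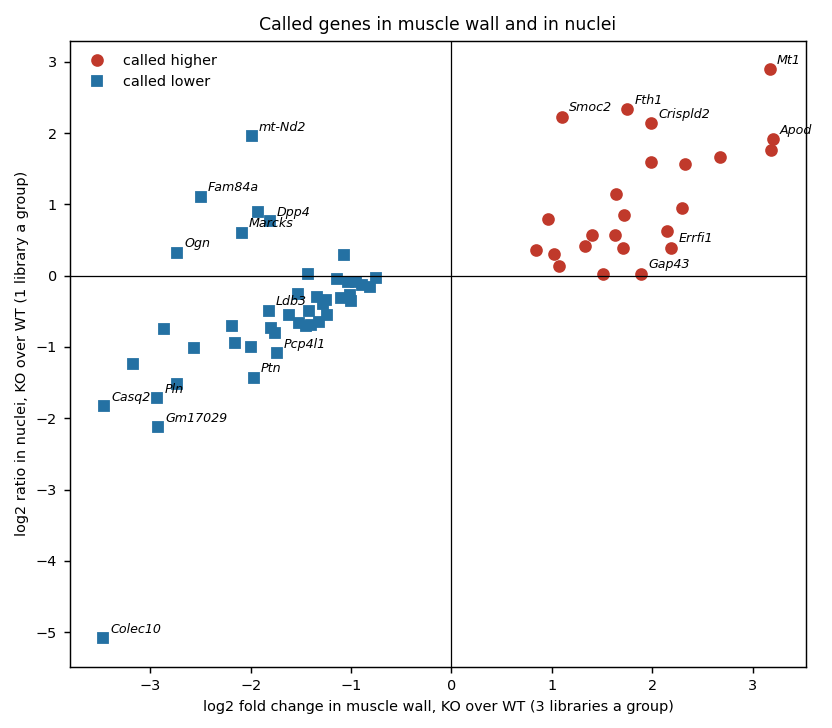
Log2 fold change in whole muscle wall (x axis) against the log2 ratio of scaled UMIs in nuclei (y axis) for 68 called genes with at least 50 UMIs, leaving out Smpx, which had 0 UMIs in the KO-labelled nuclei. All 24 genes called higher (circles) lie above 0 on both axes, and mt-Nd2, Fam84a, Dpp4, Marcks and Ogn are named among the called-lower genes (squares) that lie above 0 in nuclei.

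Of the lists, the glucocorticoid response kept its direction in the nuclei, where 19 of 20 genes were higher and the median log2 ratio was 0.70, with Dusp1 at 2.87 and Cdkn1a at 2.88. The contractile list was lower for 15 of 19 genes (median -0.33) and the striated-type list for 9 of 10 (median -0.45). MHC class II genes went the other way, with 8 of 8 higher and a median of 0.97, as did interferon response genes (13 of 14 higher, median 0.49). Heat shock, complement and fibroblast lists, with medians of -0.56, -0.42 and -0.62 in whole tissue, were higher in these nuclei too. That held for 11 of 11, 10 of 11 and 8 of 8 genes, with medians of 0.76, 1.33 and 0.63. A rise in the KO-labelled nuclei was thus not particular to the glucocorticoid response list. Macrophage markers were also higher in those nuclei, 7 of 7 with a median of 2.06, and their part in the MHC class II values was not tested.

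In jejunum, edgeR called 45 genes between the genotypes (0.215%). Of the 81 colon genes, 12 were called there too, which was 14.8% of the colon calls and 26.7% of the jejunum calls, and 78 had the same sign. Both tissues were in the same fit, and whether they shared mice is not known, so these counts are no independent replication. Gap43 and Errfi1 rose in both, with log2 fold changes of 3.0 and 1.46 in jejunum (edgeR adjusted p = 0.0028 and 0.022), and Marcks and Six5 fell in both, by 2.31 and 1.95 (edgeR adjusted p = 0.0262 and 0.0131). Ogn, Matn4, Klf2 and Smoc2 had jejunum values of -0.17, -0.37, 0.79 and 0.08, none called. The difference between the tissues was tested for all genes, and edgeR called 0, with 869 at an unadjusted p under 0.05, 38 called by DESeq2 and 0 by limma voom.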

How the data were processed

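Raw read counts per gene were deposited by the authors for 12 bulk libraries. The submitters' processing notes name STAR 2.0.4b, featureCounts 1.4.5 of Subread, edgeR and Cell Ranger; for strandedness and annotation the sources used here give nothing. Rows repeating an Ensembl identifier (276) were dropped, and coordinates are GENCODE M21 on GRCm38. Reads of overlapping genes could not be separated: 43 of the 81 called genes overlap another. The main test was edgeR 4.0.16 (filterByExpr, TMM, robust quasi-likelihood, Benjamini-Hochberg, 4 groups in 1 fit), tested on simulated data. Members and gene lists were chosen with earlier results of these data known. Named genes were the Carmn locus, the 15 highest and 15 lowest calls without overlap and with a mean log2 CPM not under 1, called list members and up to 4 members per list by smallest p. Chosen after their values were seen were the called genes so stated in the text, Slc5a4a, Gm10222, Gm13340, Gm4076, and the list members Atp2a2, Cdkn1a, Col1a1, Csf1r, Csf3r, Dusp1, Fn1, Hbb-bs, Hmox1, Ier3, Junb, Lcn2, Lyz2, Mki67, Myocd, Nr3c1, Ppp1r12a, Ptgs2, Slc7a11, Timp1, Tsc22d3, Ttn, Zbtb16, mt-Co1, Lum, Actg2, Cnn1 and Acadl. Replicates of a group were not copies of each other (lowest chi-square per gene 51.7). Over all pairs of groups that share a title tag, r between the libraries with that tag was -0.163 to 0.188. Such groups differ in tissue or genotype, so these values cannot decide whether libraries with the same tag came from the same mouse. Nuclei counts of UMIs (cellranger-arc 2.0.0, per the file headers) were deposited with even gene values and were divided by 2, then summed over all barcodes, of which 11 occur in both libraries; doublets were not removed. Motifs used RefSeq windows, and copies blastn 2.17.0. Alternatives were RLE or total-count scaling, no filter, DESeq2 1.42.0, limma 3.58.1 voom, colon libraries alone, an epithelial covariate, a replicate block and leaving out each library.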

Additional observations from a re-analysis of the deposited data

Results flagged for a closer look

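Of the genes in the lists, 6 lay on opposite sides of wild type in colon and jejunum, in each tissue without overlap between the genotypes. That was 0.793% of the 757 named and list genes, against 56 of all 20886 genes tested (0.268%). The difference of the log2 fold changes, colon minus jejunum, was -3.41 for P2rx5, an ATP receptor subunit (-1.37 in colon and 2.04 in jejunum), -2.23 for the proteoglycan Lum, -2.17 for the smooth muscle actin Actg2, -2.13 for the pericyte gene Higd1b, -1.88 for calponin, Cnn1, and -0.76 for the fatty acid enzyme Acadl. edgeR's test of the difference missed the threshold for all 6, with an adjusted p of 0.582 for P2rx5 and 0.941 for the others. DESeq2 called P2rx5 alone (adjusted p = 5.59e-05), gave 0.116 to 0.181 for Lum, Actg2, Cnn1 and Acadl, and gave no adjusted p for Higd1b. In colon Higd1b had 11, 8 and 15 counts in KO and 17, 14 and 18 in WT, so its place here rests on few reads.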

How the results depend on the processing

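The 81 colon calls were 76 to 102 under RLE scaling, total counts, no filter, limma voom, the epithelial covariate and without WT t7. They were 960 by DESeq2, and 0 with the 6 colon libraries alone, where 2270 genes had an unadjusted p under 0.05. Leaving out 1 library gave 7 to 180 calls. The 19 calls in pathway lists became 105 by DESeq2, 0 with colon libraries alone and 2 to 40 on leaving out 1 library. The single call in cell type lists became 5 by DESeq2, 2 by limma voom, 0 with colon libraries alone and 0 to 1 on leaving out 1 library. The count of 0 for the difference between tissues became 38 by DESeq2 and 0 to 1 on leaving out 1 library. The cause of these shifts was not tested, beyond the smaller number of libraries in the fits that leave some out. A limma voom fit with a replicate block on the title tags called 94 genes against 95 without it, with a consensus correlation of -0.11, and colon genotypes share a single tag, t6. Carmn stayed above wild type and uncalled in every setting, at 0.59 to 1.24. None of the 276 genes followed individually was called with a reversed sign. In the nuclei, 61 of 73 genes kept their direction at a minimum of 10 UMIs. Depth limits levels near 0: Slc5a4a and Smpx had 0 to 6 counts in each KO-labelled colon library, so their fitted fold changes depend on the prior count.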

Other observations

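Without KO t4, 11 genes passed the threshold that had not passed with it, and they were named after their values were seen. Zfas1, Snhg12 and Epb41l4aos are host transcripts of small nucleolar RNAs, and their log2 fold changes with all libraries were 1.91, 1.96 and 2.23 (edgeR adjusted p = 0.0759 for Zfas1, and 0.0309 without KO t4). The others were Tsc22d3 and Zbtb16, which belong to the glucocorticoid response list, the mitochondrial transfer RNA mt-Tp, and Gm13339, Elmo1, Trmt1, Mxra8 and Usp54. Of further host transcripts, Snhg5 was at a log2 of 1.64, Snhg15 at 1.19, Snhg6 at 1.11 and Gas5 at 0.51, none called by edgeR with all libraries.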
